A study of Mus musculus with 8 samples.

Results

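Myelin is the lipid-rich membrane that oligodendrocytes wrap around axons in the brain. Structural proteins hold its layers together or tie them to the axon, and its outer leaflet is rich in galactosylceramide and sulfatide, lipids built by a short enzyme pathway from ceramide. The hippocampus holds myelinated fibres in its own layers and in the tracts along its edge. The genes described here are 9 well-known members of that programme, chosen by name and with earlier results of these data known. There are 6 for myelin proteins (Mbp, Mag, Mog, Mobp, Cnp and Cldn11) and 3 for enzymes of myelin lipids (Ugt8a, Fa2h and Gal3st1). All 9 were on the array, with 21 probe sets that carried 1 of these symbols alone, out of 22626 probe sets that are not controls. A probe set is a group of short probes against 1 or more transcripts, and Mbp had 8, Mobp 3, Cnp 3, Ugt8a 2 and the other genes 1 each.

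RNA came from the right hippocampus of 8 mice, with 1 Affymetrix mouse array per animal. The 4 mutant mice carried 2 copies of the mps allele (mps/mps) of Gusb, the gene of beta-glucuronidase. Loss of this lysosomal enzyme causes mucopolysaccharidosis VII, in which glycosaminoglycans build up in cells. The 4 normal mice carried 1 copy (mps/+), so both groups hold the mps allele, and all animals were bred by mating carrier siblings. The strain name in the labels is B6.C-H2-Kbm1/ByBir-Gusb, then the genotype, mps/mps for mutants and mps/+ for normals, and then the suffix /J. Mutants 1 to 4 were a female of 38.3 weeks, males of 25.6 and 25.6 weeks and a female of 19.6 weeks. Normals 1 to 4 were a female of 38.3 weeks, males of 25.6 and 19.6 weeks and a female of 14.6 weeks. Both groups were housed together.

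Several facts of the arrays touch every result below. Of the 2 probe sets for Gusb, 1448124_at had 4.51, 4.71, 4.36 and 4.62 in mutants 1 to 4, against 6.56, 5.40, 5.83 and 6.02 in normals 1 to 4 (log2 values, no overlap), while 1430332_a_at overlapped. In normal 1 the actin and Gapdh control probe sets read on average 3.58 log2 units higher at the 3 prime than at the 5 prime end of the transcript, a pattern known from degraded RNA. The same difference was 0.30, 0.75, 0.66 and 0.55 in mutants 1 to 4 and 0.35, 0.29 and 0.22 in normals 2 to 4. The label hippocampus was not borne out evenly by markers. The mean of 4 dentate gyrus genes lay between 3.72 and 6.24 in mutants and between 3.54 and 4.48 in normals. For 2 genes of hippocampal CA1 neurons the mean lay between 7.67 and 9.55 in mutants and between 8.02 and 9.64 in normals. For 6 hypothalamic genes it lay between 4.93 and 8.49 in mutants and between 5.32 and 9.01 in normals. The highest of 15 probe sets for absent bacterial transcripts read 3.72. Markers of striatum, thalamus and choroid plexus differed between animals by several log2 units and are given beside the results they move with.

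Promoter sequences of these genes are shown first. The sequences are the 250 bases before each gene's most upstream listed start, from RefSeq on GRCm38.p6, 5′ to 3′ on the strand of the gene. RefSeq windows were matched for 7 of the 9 genes, 11 in all, since Mag and Gal3st1 have 3 listed starts each. Those of 5 genes are printed, and no link between the sequences and the expression values was tested. Capitals mark matches on either strand to the core of the SOX family site (ACAAAG or ACAATG) and to the site of the myelin regulator Myrf (CTGGCAC or CTGGTAC). Searched and not found in the 11 windows was CAGCTG, an E-box that Olig factors can bind. No match overlapped another.
Mobp, chr9:120149492-120149741, plus strand: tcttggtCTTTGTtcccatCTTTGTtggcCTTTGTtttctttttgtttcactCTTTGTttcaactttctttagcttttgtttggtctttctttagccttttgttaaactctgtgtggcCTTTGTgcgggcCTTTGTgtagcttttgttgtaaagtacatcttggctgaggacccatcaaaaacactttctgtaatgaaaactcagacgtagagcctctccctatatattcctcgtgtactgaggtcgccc
Mag, chr7:30914923-30915172, minus strand: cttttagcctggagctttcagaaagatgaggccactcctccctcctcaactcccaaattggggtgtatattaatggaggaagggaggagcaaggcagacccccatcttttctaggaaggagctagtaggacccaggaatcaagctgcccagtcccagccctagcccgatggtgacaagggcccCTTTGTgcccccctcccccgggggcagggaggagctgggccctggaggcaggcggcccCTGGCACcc
Cnp, chr11:100574689-100574938, plus strand: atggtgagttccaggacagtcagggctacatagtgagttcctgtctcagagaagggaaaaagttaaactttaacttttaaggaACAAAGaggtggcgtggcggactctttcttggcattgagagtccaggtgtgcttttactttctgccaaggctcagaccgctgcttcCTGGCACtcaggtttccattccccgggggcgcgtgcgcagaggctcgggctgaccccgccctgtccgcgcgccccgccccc
Mog, chr17:37023399-37023648, minus strand: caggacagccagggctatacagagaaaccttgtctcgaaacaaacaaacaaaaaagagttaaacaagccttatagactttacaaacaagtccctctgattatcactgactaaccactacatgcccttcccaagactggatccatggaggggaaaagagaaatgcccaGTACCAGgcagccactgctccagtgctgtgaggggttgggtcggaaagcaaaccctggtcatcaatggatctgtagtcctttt
Ugt8a, chr3:125938653-125938902, minus strand: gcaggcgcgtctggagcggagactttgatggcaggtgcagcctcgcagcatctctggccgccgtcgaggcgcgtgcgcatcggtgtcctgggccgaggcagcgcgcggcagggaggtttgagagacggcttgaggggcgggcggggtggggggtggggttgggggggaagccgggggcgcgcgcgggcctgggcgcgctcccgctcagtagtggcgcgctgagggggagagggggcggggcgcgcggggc

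The Mobp window held 6 SOX cores, all written CTTTGT on its strand, at 243, 231, 221, 198, 132 and 120 bases before the start. It was the 1 window with that many among 32851 mouse promoter windows of the same length, of which 25.2% held at least 1 core. Mag held a SOX core 67 bases and a Myrf site 9 bases before its most upstream start. The same sites lie 126 and 68 bases before its next start, and the window of the start farthest downstream held no match. Cnp held a SOX core at 167 and a Myrf site at 81 bases. Mog held a Myrf site 83 bases before the start, written GTACCAG. Gal3st1 held a SOX core 184 bases before its most upstream start and 199 before its next, with no match before the one farthest downstream. Of all windows, 5.93% held a Myrf site and 13.0% the E-box. Neither Ugt8a, whose window is 76.8% G and C against a median of 52.4% over all windows, nor Cldn11 held any of these letters. These are matches of letters, chosen for search after the sequences were seen, and not measured binding sites.

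All 21 myelin probe sets had a lower mean in mutants than in normals. Lower means were found for 52.9% of all probe sets. As the genes were chosen with earlier results of these data known, such shares describe the set and are no independent test. The median change over the 21 was -0.68 on the log2 scale, against -0.012 over all 22626. In a limma fit over all probe sets with Benjamini-Hochberg adjustment, 1 of the 21 passed adjusted p 0.05, Ugt8a 1419064_a_at, where 0.0884% of all probe sets passed. It was 1 of 2 probe sets in the whole table that passed as lower (0.00884%), while 0.0796% passed as higher, none of them a myelin probe set. At an unadjusted p under 0.05, 14 of the 21 were lower and 0 higher, where 2.81% of all probe sets were lower and 3.14% higher. Every mutant lay below every normal for 11 of the 21, where this held for 1.75% of all probe sets, and above every normal for 0 of the 21, where this held for 1.81%. Of these 11, 4 were for Mbp and 2 for Ugt8a. All 21 were read in the same animals, and those of 1 gene are not independent. The mean of the 9 genes, each by its brightest probe set, was 9.22, 9.10, 8.51 and 9.25 in mutants 1 to 4, against 10.08, 9.73, 9.67 and 9.46 in normals 1 to 4, with no overlap. Fewer oligodendrocytes in a piece and less transcript per oligodendrocyte cannot be told apart in such bulk RNA.

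**Figure D1:**
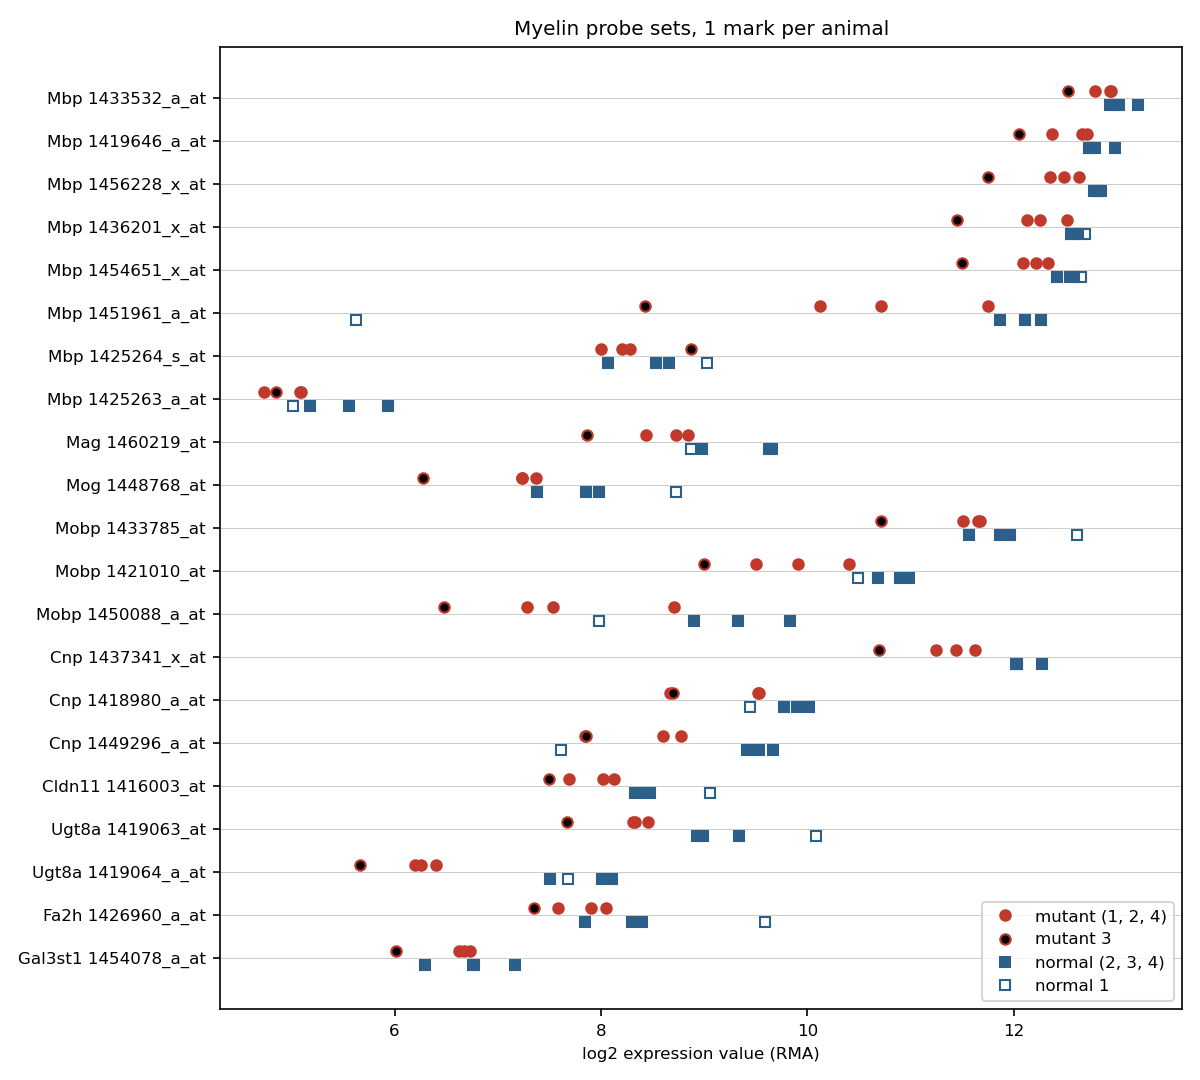
Log2 expression value (horizontal axis) of the 21 myelin probe sets (rows), with 1 mark per animal, mutants as red circles above and normals as blue squares below each line. The groups separate for 11 of the 21 probe sets, mutant 3 (black centre) is the lowest of all arrays for 16, and normal 1 (open square) leaves the other normals in both directions.

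Among the lipid enzymes, Ugt8a was lower in every mutant than in any normal on both of its probe sets, and 1 of the 2 passed. It encodes the galactosyltransferase that makes galactosylceramide from ceramide, the first step particular to myelin galactolipids. Probe set 1419064_a_at had 6.40, 6.20, 5.66 and 6.26 in mutants 1 to 4, against 7.68, 7.51, 8.01 and 8.11 in normals 1 to 4. The groups stood 1.11 apart at their nearest values, the widest gap of the 21 probe sets. Its change was -1.70 ± 0.20 (SE), a level 3.24-fold lower in mutants (limma adjusted p = 0.0306, n = 4 each). Without normal 1 the change was -1.74 ± 0.22 and the adjusted p 0.0656, and the call was also lost in 6 of the other 7 fits that left out 1 animal (change -1.80 to -1.54 over the 8). It was lost too with sex (limma adjusted p = 0.0662), age (0.0714) or the series of animal numbers (0.055) in the model, and with each regional covariate (0.0615 or above). In all it passed in 9 of 28 alternative fits. The second Ugt8a probe set, 1419063_at, had 8.33, 8.46, 7.67 and 8.31 in mutants 1 to 4, against 10.08, 8.99, 8.93 and 9.34 in normals 1 to 4. These groups did not overlap either, and the change of -1.14 ± 0.28 did not pass (limma adjusted p = 0.447). Taken as the mean of both, Ugt8a passed in a fit over 12393 genes (-1.42 ± 0.20, limma adjusted p = 0.0468), and by the brighter probe set alone it did not (limma adjusted p = 0.344).

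Fa2h and Gal3st1 had lower means in mutants, but the groups overlapped. Fa2h encodes the fatty acid 2-hydroxylase that supplies the hydroxylated fatty acids of myelin galactolipids. It had 7.58, 7.90, 7.35 and 8.05 in mutants 1 to 4, against 9.59, 8.40, 8.30 and 7.85 in normals 1 to 4. Normal 4 lay inside the range of the mutants, and normal 1 stood 2.66-fold above the mean of the other 3 normals. The change was -0.81 ± 0.35 (limma adjusted p = 0.832) and -0.46 ± 0.21 without normal 1. Gal3st1, whose product adds the sulfate that turns galactosylceramide into sulfatide, had 6.73, 6.67, 6.01 and 6.63 in mutants 1 to 4, against 6.77, 7.17, 6.76 and 6.29 in normals 1 to 4. Its change of -0.24 ± 0.22 (limma adjusted p = 0.923) came to -0.070 without mutant 3, the lowest array. The 3 enzymes of 1 pathway thus had changes from -1.70 to -0.24 over their 4 probe sets, and whether Ugt8a differed from the other 2 was not tested.

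**Figure D2:**
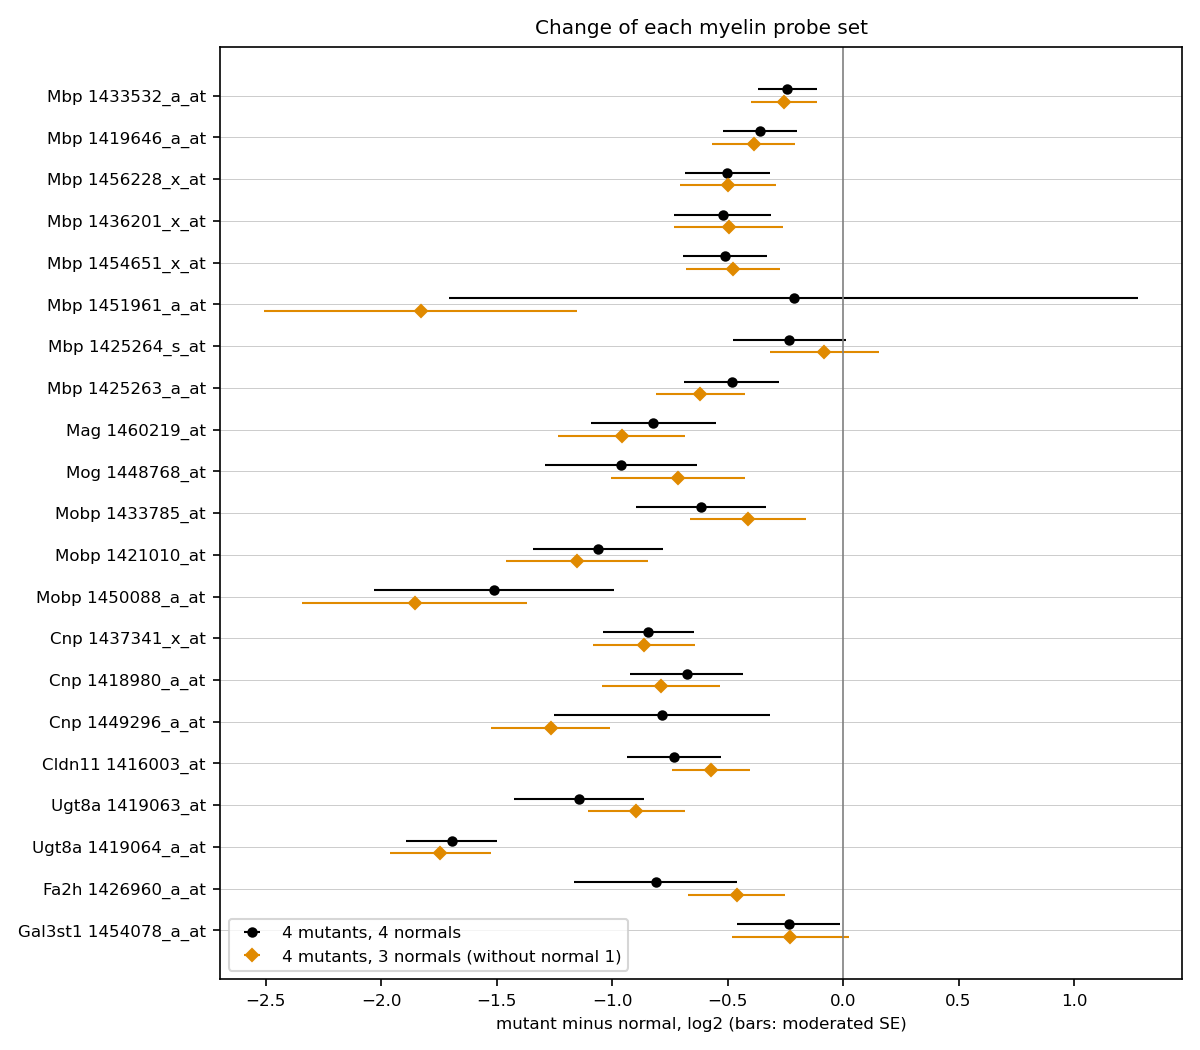
Change of each myelin probe set (mutant minus normal, log2 units), bars giving the moderated SE, from all 8 arrays (black circles) and without normal 1 (orange diamonds). All points lie below 0, Ugt8a 1419064_a_at lies at -1.70 and -1.74, and Mbp 1451961_a_at moves from a wide bar at -0.21 to -1.83 when normal 1 is left out.

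The surface and junction proteins Mag, Mog and Cldn11 were each lower in all 4 mutants than in any normal, by 1.66-fold to 1.95-fold, and none passed over all probe sets. Mag, a lectin-like receptor of the innermost myelin layer that faces the axon, had 8.84, 8.44, 7.86 and 8.72 in mutants 1 to 4, against 8.88, 9.63, 9.66 and 8.98 in normals 1 to 4. Mutant 1 and normal 1, the 2 females of 38.3 weeks, were nearly equal, and the change was -0.82 ± 0.27 (limma adjusted p = 0.734). Mog, an immunoglobulin-like protein of the outermost layer, had 7.23, 7.23, 6.27 and 7.37 in mutants 1 to 4, against 8.72, 7.99, 7.86 and 7.38 in normals 1 to 4. Its groups were only 0.00897 apart, between mutant 4 and normal 4, and the change was -0.96 ± 0.33 (limma adjusted p = 0.767). Cldn11, the claudin of the tight junctions between myelin layers, had 8.02, 7.69, 7.501 and 8.13 in mutants 1 to 4, against 9.05, 8.41, 8.33 and 8.47 in normals 1 to 4. Normals 2 to 4 lay close together (SD 0.072), and the change was -0.73 ± 0.20 (limma adjusted p = 0.565) and -0.57 ± 0.17 without normal 1. For each of the 3 genes the two-sided exact permutation p was 0.0286, the smallest that 4 against 4 arrays can give. The lack of overlap fixes this value, so it adds nothing to it. Among all probe sets, 1.75% were without overlap as lower and 1.81% as higher. Without normal 1 the exact permutation p was 0.0286 for Mag and 0.0571 for Mog and Cldn11.

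Mobp, a small basic protein on the cytoplasmic side of compact myelin, was lower on all 3 of its probe sets, and the 3 differed in normal 1. Probe set 1421010_at had 10.40, 9.50, 8.999 and 9.91 in mutants 1 to 4, against 10.49, 10.68, 10.99 and 10.90 in normals 1 to 4, without overlap (-1.06 ± 0.28, limma adjusted p = 0.519). Probe set 1450088_a_at had 8.71, 7.28, 6.48 and 7.53 in mutants 1 to 4, against 7.98, 9.33, 9.83 and 8.90 in normals 1 to 4. Here mutant 1 lay above normal 1, and leaving out normal 1 separated the groups and took the change to -1.86 ± 0.49 from -1.51 ± 0.52 (limma adjusted p = 0.285 and 0.768). The brightest, 1433785_at, had 11.67, 11.51, 10.72 and 11.66 in mutants 1 to 4, against 12.62, 11.97, 11.87 and 11.57 in normals 1 to 4. On it normal 1 was the highest array, and its change of -0.62 ± 0.28 (limma adjusted p = 0.847) was -0.41 ± 0.25 without normal 1.

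Cnp, a cyclic nucleotide phosphodiesterase that keeps cytoplasmic channels open in myelin, was lower on its 3 probe sets by 1.599-fold to 1.79-fold. Its brightest probe set, 1437341_x_at, whose name marks possible cross-hybridisation, had 11.62, 11.25, 10.69 and 11.45 in mutants 1 to 4, against 12.03, 12.04, 12.28 and 12.03 in normals 1 to 4. The groups were 0.41 apart, and the change was -0.84 ± 0.20 (limma adjusted p = 0.404). Probe set 1418980_a_at had 9.52, 8.67, 8.70 and 9.53 in mutants 1 to 4, against 9.45, 10.01, 9.77 and 9.90 in normals 1 to 4, and mutants 1 and 4 passed normal 1 alone. Probe set 1449296_a_at had 8.78, 7.84, 7.86 and 8.60 in mutants 1 to 4, against 7.61, 9.41, 9.53 and 9.66 in normals 1 to 4. Normal 1 was the lowest of all 8 arrays there, and without it the groups separated, with a change of -1.27 ± 0.26 in place of -0.78 ± 0.47 (limma adjusted p = 0.199 and 0.898).

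Mbp, the basic protein that draws the inner membrane faces of myelin together, was lower on all 8 of its probe sets, by modest amounts. The changes ran from -0.52 to -0.21, with a median of -0.42, and none passed. Probe set 1456228_x_at, named for possible cross-hybridisation, had 12.63, 12.35, 11.75 and 12.49 in mutants 1 to 4, against 12.82, 12.80, 12.85 and 12.78 in normals 1 to 4. All 4 mutants were below the normals, which varied by an SD of 0.029, and the change was -0.50 ± 0.18 (limma adjusted p = 0.804), 1.42-fold lower. Groups also did not overlap on 1436201_x_at (-0.52) and 1454651_x_at (-0.51), both likewise named for possible cross-hybridisation, and on 1419646_a_at (-0.36). On 1433532_a_at (-0.24) mutant 4 lay just above normal 2, both at 12.94. On 1425264_s_at mutant 3 was the highest mutant, at 8.87, and the change of -0.23 ± 0.24 came to -0.081 without normal 1. The dim 1425263_a_at had 5.10, 5.08, 4.85 and 4.73 in mutants 1 to 4, against 5.01, 5.56, 5.93 and 5.18 in normals 1 to 4 (-0.48 ± 0.21).

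Mbp probe set 1451961_a_at stood apart from the other 7. It had 11.75, 10.13, 8.43 and 10.71 in mutants 1 to 4, against 5.62, 11.87, 12.11 and 12.27 in normals 1 to 4. Normal 1 was 88.2-fold below the mean of the other 3 normals on it, while 5 brighter Mbp probe sets read within 1.10-fold of them in that animal. With all arrays the change was -0.21 ± 1.49 (limma adjusted p = 0.992), and without normal 1 it was -1.83 ± 0.68, 3.55-fold lower with no overlap (limma adjusted p = 0.425). The mutants followed the order of their 3 prime minus 5 prime values only in part: mutant 1 had the lowest such value, 0.30, and the highest Mbp value of the mutants, but mutant 2 had the highest of the mutants, 0.75, and mutant 3, at 0.66, the lowest Mbp value. With that value as a covariate the change was -1.31 ± 0.53 (limma adjusted p = 0.479).

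**Figure D3:**
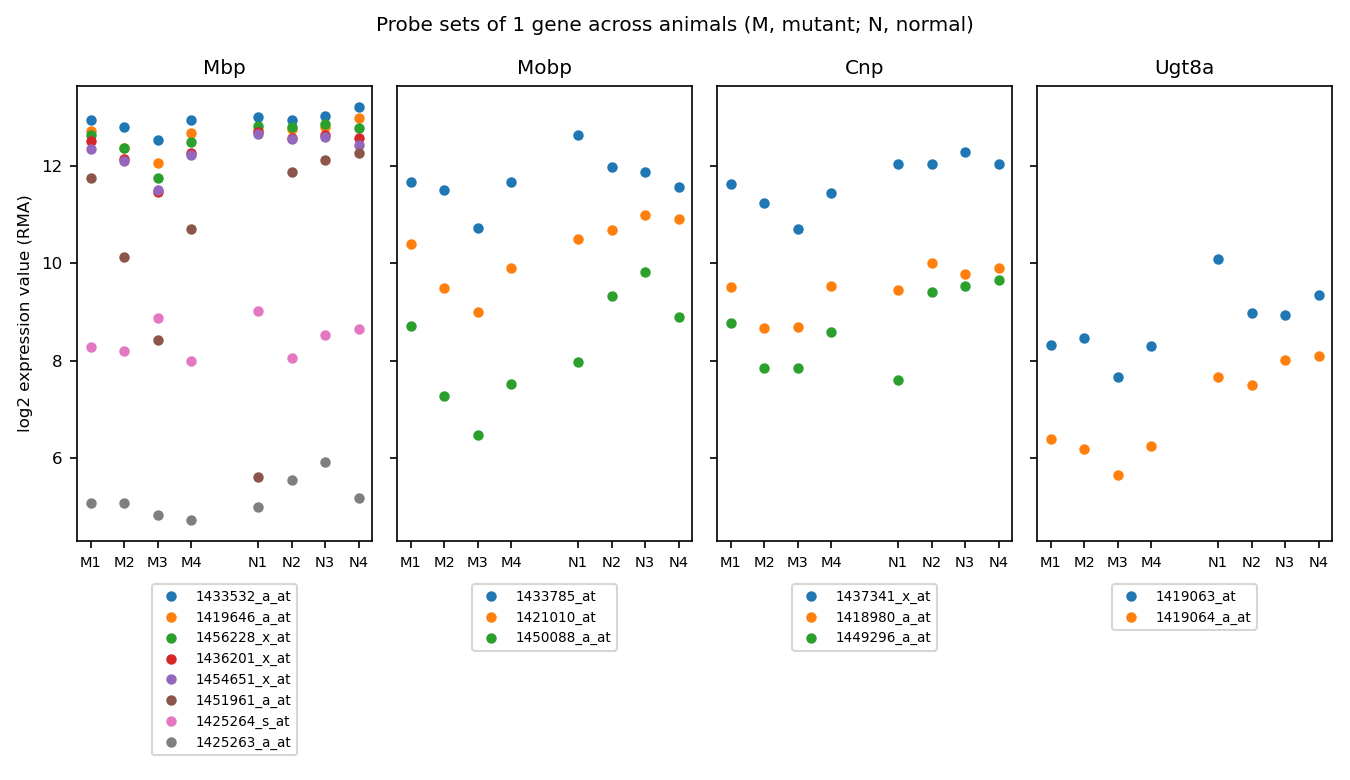
Log2 values of every probe set (colours) of Mbp, Mobp, Cnp and Ugt8a in each mutant (M1 to M4, left) and normal animal (N1 to N4, right). In N1, Mbp 1451961_a_at reads 5.62 against 11.87 to 12.27 in N2 to N4, and Mobp and Cnp probe sets part as well. The Ugt8a probe sets lie at 1.00 (1419063_at) and -0.20 (1419064_a_at) from the mean of N2 to N4 there. Both stay above all mutants.

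Normal 1, with its high 3 prime minus 5 prime value, left the other normals in both directions. It lay above all other normals for 8 of the 21 probe sets, with Fa2h (1.41), Ugt8a 1419063_at (1.00) and Mog (0.98) farthest above their mean on the log2 scale. It lay below all other normals for another 8, with Mbp 1451961_a_at (-6.46), Cnp 1449296_a_at (-1.93) and Mobp 1450088_a_at (-1.38) farthest below. Neither count was made over all probe sets. With normal 1 left out, all 21 changes were still below 0, as were 50.4% of all probe sets. The median of the 21 was -0.62, against -0.0023 over all. Every mutant was then below every normal for 16 of the 21, where 4.86% of all probe sets were. None lay above every normal, where 4.04% did. At an unadjusted p under 0.05, 14 were lower and 0 higher, where 5.71% and 4.44% of all were. In this limma fit 0 of the 21 passed adjusted p 0.05, where 0.0751% did, 0.0133% as lower and 0.0619% as higher. The 5 that still overlapped were Mbp 1433532_a_at and 1425264_s_at, Mobp 1433785_at, Fa2h and Gal3st1.

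Mutant 3, a male of 25.6 weeks, was the lowest of all 8 arrays for 16 of the 21 probe sets. Mutant 1, the oldest, was the highest mutant for 14. Neither count was made over all probe sets. Without mutant 3 the median change was -0.54 and 20 of 21 changes were below 0, with Mbp 1451961_a_at at 0.39. Between animals of 1 age and sex, the 2 males of 25.6 weeks among the mutants were below the normal of that age on 20 of 21 probe sets each, with median differences of -1.25 for mutant 3 and -0.53 for mutant 2. The female mutant of 38.3 weeks was below normal 1, the female of that age, on 16 of 21, with a median difference of -0.18. Mutant 4 was below normal 3, also 19.6 weeks old but male, on 21 of 21, with a median of -0.49. These are single pairs with no test, and their counts were not made over all probe sets.

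Changes were more negative in males for 18 of the 21 probe sets, a count not made over all probe sets. No interaction of genotype and sex passed. Mag had a change of -1.50 in males and -0.15 in females, a difference of -1.35 ± 0.30 (limma adjusted p = 0.397). Mobp 1450088_a_at (-2.70 and -0.32), Mobp 1421010_at (-1.59 and -0.54) and Cnp 1418980_a_at (-1.21 and -0.15) also had an unadjusted p under 0.05. That makes 4 of 21, where 10.5% of all probe sets did so. Ugt8a 1419064_a_at had changes of -1.83 in males and -1.57 in females. Each sex held 2 animals a group, mutant 3 is 1 of the 2 mutant males, and normal 1 is 1 of the 2 normal females.

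Striatal markers were also lower in mutants, and other regional markers varied between animals. The mean of 6 striatal genes was 7.70, 6.88, 6.60 and 7.11 in mutants 1 to 4, against 10.14, 7.44, 10.38 and 9.34 in normals 1 to 4, and mutant 3 was again lowest. Normal 2, whose striatal mean lay below that of mutant 1, had a mean of 9.73 for the 9 myelin genes, above the 8.51 to 9.25 of all mutants. With the striatal mean as a covariate, the median change of the 21 was -0.46, 20 were below 0, and Ugt8a 1419064_a_at was at -1.30 ± 0.30 without passing. That fit called 0 of all probe sets, and only normal 2 had a striatal mean inside the range of the mutants. The mean of 9 thalamic and habenular genes was 8.35, 10.14, 6.63 and 10.02 in mutants 1 to 4, against 8.89, 9.42, 7.35 and 7.05 in normals 1 to 4, so mutant 3 was lowest here as well. With the first principal component of all regional markers as a covariate, the median change was -0.80, with 20 below 0. That component was -5.32 in mutant 3, near the -6.66 and -6.02 of normals 3 and 4, whose striatal means were far higher. This fit therefore cannot be read as an adjustment for the striatal difference between groups. Choroid plexus genes were high in mutants 1 and 3 (means of 8.84 and 7.86, against 5.99 in mutants 2 and 4 and 4.95 to 6.12 in normals), and without those 2 mutants the median change was -0.56 and all 21 were below 0.

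**Figure D4:**
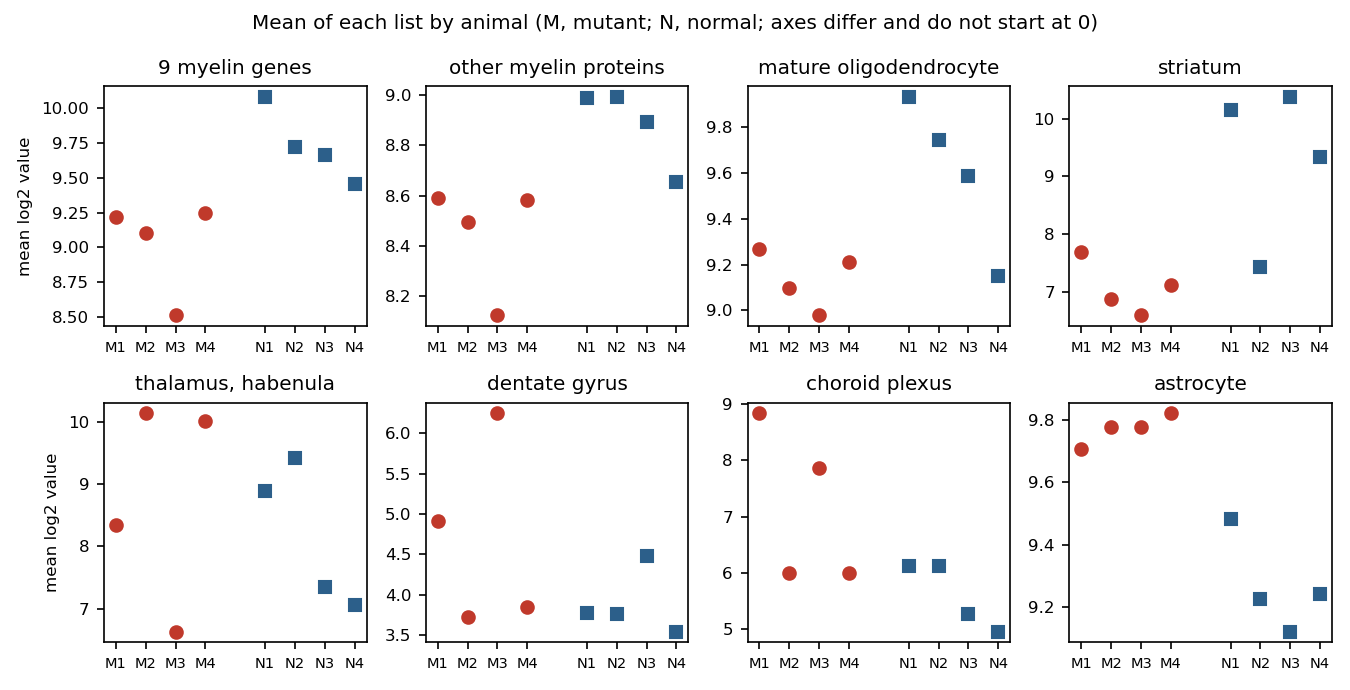
Mean log2 value of 8 gene lists (panels) in each mutant (M1 to M4, red) and normal animal (N1 to N4, blue), on axes that differ between panels and do not start at 0. The 9 myelin genes separate the groups, at 8.51 to 9.25 in mutants and 9.46 to 10.08 in normals, and the striatal mean is low in all mutants and in N2.

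Other myelin protein genes were mostly lower too. Of 22 on the list, 15 were measured, and 14 had lower means in mutants (median -0.49). At an unadjusted p under 0.05, 5 were lower and 1 higher, and 0 passed adjusted p 0.05. With normal 1 left out, 13 of the 15 had lower means and 3 were lower at an unadjusted p under 0.05 (median -0.36). Mutant arrays had list means between 8.13 and 8.59, and normal arrays between 8.65 and 8.99. Mal, a proteolipid of myelin membrane traffic, had 9.62, 9.97, 9.02 and 9.90 in mutants 1 to 4, against 11.63, 10.62, 10.53 and 10.49 in normals 1 to 4 (-1.19 ± 0.31, limma adjusted p = 0.498). The tetraspanin gene Tspan2 (-0.88) and the junction gene Jam3 (-0.51) also had lower values in every mutant, while the tetraspanin gene Cd9, which many cell types express, was higher (0.68 ± 0.19, limma adjusted p = 0.563). Of 10 measured genes of mature oligodendrocytes, 9 had lower means and 5 were lower at an unadjusted p under 0.05 (median -0.59, 0 past adjusted p 0.05). Car2 (-0.80), Adamts4 (-0.81), Evi2a (-0.89) and Aspa (-0.80), the gene of the enzyme that frees acetate from N-acetylaspartate, had the smallest p. Means of the 10 genes overlapped, at 8.98 to 9.27 in mutant arrays and 9.15 to 9.93 in normal arrays. Without normal 1, 7 of the 10 had lower means and 3 were lower at an unadjusted p under 0.05. Of all probe sets on all 8 arrays, 52.9% had lower means and 2.81% were lower at that p.

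No lineage factor or precursor gene passed. Of 7 measured transcription factors of the lineage, 5 had lower means, none with an unadjusted p under 0.05 (median -0.29). Without normal 1, 4 of the 7 had lower means and the median was -0.047. Myrf, the activator of myelin genes, had 6.99, 7.23, 6.47 and 7.03 in mutants 1 to 4, against 8.08, 7.47, 7.17 and 6.996 in normals 1 to 4 (-0.50 ± 0.26, limma adjusted p = 0.882). Sox10, at -0.33 ± 0.32, Nkx6-2, at -0.63 ± 0.43, and Olig2, at -0.29 ± 0.32, overlapped widely. Without normal 1 their changes were -0.047 for Sox10, -0.48 for Nkx6-2 and 0.045 for Olig2, and that of Myrf was -0.28. Of 7 measured precursor genes, 4 had lower and 3 higher means, none with an unadjusted p under 0.05 (median -0.13), with C1ql1 at 0.38, Ptprz1 at 0.40, Sox6 at -0.40 and Vcan at -0.24. Markers of Schwann cells, which make myelin in peripheral nerve, had means between 5.66 and 6.15 in mutants and between 5.93 and 7.67 in normals over the 3 genes measured. Of these Pmp22 was at 0.19 and Ncmap at -0.25, and Egr2, also an activity-induced gene of neurons, was at -2.52 (unadjusted p under 0.05).

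Genes that feed the galactolipid pathway or degrade its products did not pass. Of 9 measured genes that supply ceramide, long fatty acids or sulfate donor, 6 had lower means and 1 had an unadjusted p under 0.05 (median -0.15). That gene was Cers2, the ceramide synthase for very long fatty acids, with 8.25, 8.04, 7.71 and 8.15 in mutants 1 to 4, against 8.52, 8.47, 8.32 and 8.40 in normals 1 to 4 (-0.39 ± 0.13, limma adjusted p = 0.776). The elongase genes Elovl1 (-0.39) and Elovl7 (-0.32) and the desaturase gene Degs1 (-0.15) overlapped between groups. Of 6 genes that break down or carry galactolipids, 5 had higher means and none an unadjusted p under 0.05 (median 0.23). They included Galc, the lysosomal galactosylceramidase gene (0.23 ± 0.19), the ceramidase gene Asah1 (0.25 ± 0.14), the saposin precursor gene Psap (0.27 ± 0.19) and Sumf1, whose product activates sulfatases (0.21 ± 0.21). Differences between these lists were not tested.

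**Figure D5:**
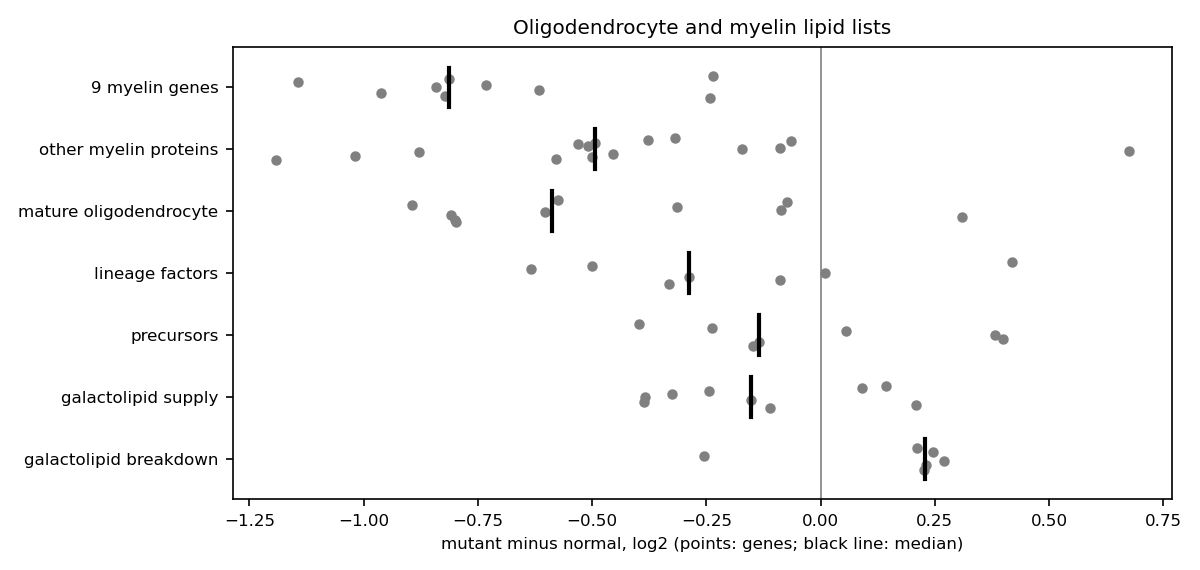
Log2 change, mutant minus normal, of each gene (grey points, brightest probe set) in the 9 myelin genes and 6 related lists, with the median of each as a black line. Medians over all 8 arrays lie at -0.81 for the 9 genes, and at -0.49 and -0.59 for other myelin and mature oligodendrocyte genes. They lie at -0.29 to -0.13 for lineage factors, precursors and lipid supply, and 0.23 for lipid breakdown. Without normal 1 (not drawn) the medians were -0.57 for the 9 genes, and -0.36 and -0.46 for other myelin and mature oligodendrocyte genes. They were then -0.085 to -0.027 for lineage factors, precursors and lipid supply, and 0.21 for lipid breakdown.

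Across the 8 arrays, the genes whose values ran most like the mean of the 9 myelin genes were taken from 12384 other genes. Ranked by Pearson's r with no test, the first 8 were Plekhb1 (0.968), Evi2a (0.965), Mal (0.958), Nlrp5 (0.952), Aspa (0.951), Cers2 (0.949), Plxnb3 (0.947) and Nmur1 (0.945). The difference between groups enters this measure. After each group was centred on its own mean, r was 0.986 for Plekhb1, a membrane protein gene, and 0.861 to 0.926 for the other 7. Plekhb1 had 11.57, 11.46, 10.82 and 11.67 in mutants 1 to 4, against 12.30, 11.83, 11.73 and 11.66 in normals 1 to 4. Nlrp5 and Nmur1 read between 3.36 and 4.02 in all arrays, near the highest bacterial control at 3.72. Of the 8, 4 are on the lists of other myelin proteins or mature oligodendrocyte genes, 1 is on the lipid supply list and 3 are on no list.

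Of the markers of other cell types, Gfap alone passed among the astrocyte genes. Means of 7 astrocyte genes lay between 9.71 and 9.82 in mutants and between 9.12 and 9.48 in normals, and the astrocyte filament gene Gfap rose (2.27 ± 0.22, limma adjusted p = 0.0152). Without Gfap, left out after its values were seen, the means of the other 6 overlapped, at 9.66 to 9.85 in mutants and 9.40 to 9.76 in normals. The median change of the 7 was 0.21, with 6 higher means and 1 lower, Slc1a2 (-0.29). Means of 8 microglia genes lay between 7.34 and 7.75 in mutants and between 7.02 and 7.60 in normals. For 9 neuronal genes they lay between 9.34 and 9.65 in mutants and between 9.27 and 9.82 in normals. With the neuronal mean as a covariate, the median change of the 21 myelin probe sets was -0.69. The part of each of these cell types in the myelin values was not otherwise tested.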

How the data were processed

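Per the submitters' processing notes, the authors made the deposited log2 values with RMA, which corrects background, normalizes between arrays and gives 1 value per probe set. The notes also name GCOS 1.4. A genome build is not given in the sources used here. The number of animals sets the precision, as arrays hold no counts. Of 22626 probe sets that are not controls, 20380 had 1 gene symbol, 691 several and 1555 none in the platform annotation, and no dim probe set was removed. limma 3.58.1 (lmFit and eBayes, R 4.3.3) was fitted to all of them, with Benjamini-Hochberg adjustment and adjusted p 0.05 as the limit. Each change is the mutant mean less the normal mean, with the moderated SE. Single probe sets were also compared by a two-sided exact permutation test over 70 arrangements. Each animal is 1 replicate, and replicate numbers follow the order of deposit and pair no animals. The fit was tested on simulated data. Lists use the brightest probe set of each gene. Named are all members, the 4 genes with the smallest p and any past the limit in each related list, and the 8 genes most like the member mean. Regional and other cell lists are given by their means. The members and lists were chosen with earlier results of these data known.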

Additional observations from a re-analysis of the deposited data

Results flagged for a closer look

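In 6 of 56 groups of 4 arrays, 1 array lay farther from the others than Dixon's 95% limit for 4 values, and chance gives about 1 in 20. Normal 1 was low for Mbp 1451961_a_at, at 5.62 against 11.87 to 12.27 in the other normals (gap over range 0.940), and for Cnp 1449296_a_at, at 7.61 against 9.41 to 9.66 (0.877). Mutant 3 was low for Mog 1448768_at, at 6.27 against 7.23 to 7.37 in the other mutants (0.874), for Mobp 1433785_at, at 10.72 against 11.51 to 11.67 (0.8291), and for Gal3st1 1454078_a_at, at 6.01 against 6.63 to 6.73 (0.858). Normal 3 was high for Cnp 1437341_x_at, at 12.28 against 12.03 to 12.04 in the other normals (0.959).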

How the results depend on the processing

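Over 30 alternatives, 572 of 582 recomputed changes of myelin probe sets kept their direction, and the median change stayed between -0.82 and -0.46. The 10 that turned were Mbp 1425264_s_at with the striatal mean (0.15) or the regional component (0.010) as covariate, and Mbp 1451961_a_at with age (0.20), sex and age (0.20), the choroid plexus mean (0.37) or the neuronal mean (0.67) as covariate and without normal 2 (0.25), normal 3 (0.33), normal 4 (0.39) or mutant 3 (0.39). Leaving out 1 animal gave Mbp 1451961_a_at changes of -1.83 to 0.39. In both fits by gene, 9 of 9 genes were lower. Ugt8a 1419064_a_at passed with all arrays and in 9 of 28 alternatives by probe set. It did not pass with sex (-1.70, limma adjusted p 0.0662), age (-1.68, 0.0714), sex and age (-1.67, 0.153), the series of animal numbers (-1.70, 0.055), the regional component (-1.69, 0.122), the neuronal mean (-1.68, 0.108), the replicate block (-1.70, 0.331), the striatal mean (-1.30, 1.0), the thalamic mean (-1.70, 0.0615) or the choroid plexus mean (-1.57, 0.519). Nor did it pass without normal 1 and mutant 3 together (-1.59, 0.0582) or without mutants 1 and 3 together (-1.60, 0.22). Leaving out 1 animal gave -1.80 to -1.54, and it passed only without normal 2. In each of these fits that it missed, and with 1 probe set per gene, 0 myelin probe sets passed, and leaving out 1 animal gave 0 to 1. Of all probe sets, 20 passed with all arrays, 13 with 1 probe set per gene, 60 with array weights, 7 with sex, 10 with age, 6 with sex and age, 7 with the regional component, 8 with the neuronal mean, 0 with the replicate block, 0 with the striatal mean, 2 with the choroid plexus mean, 9 without normal 1 and mutant 3, 3 without mutants 1 and 3, and 6 to 27 without 1 animal. The interaction of genotype and sex passed for 0 probe sets with all arrays and for 0 to 1 without 1 animal. The striatal, thalamic and choroid plexus covariates and the 2 double omissions were chosen after seeing the data. Causes of these differences were not tested. The labels pair no animals, so the replicate block shares only a number.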
